A study of Homo sapiens with 15 samples.

Results

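FOLH1, STEAP1, STEAP2, CD276, PSCA, CEACAM5 and DLL3 encode cell surface proteins that antibodies, radioligands or engineered T cells are directed at in prostate cancer. They were chosen by name as such targets, though with earlier results of these data known, and make up 7 of the 58381 genes listed in each library. Their transcripts were measured by bulk RNA-seq in 5 sublines of VCaP, an established prostate cancer cell line, with 3 replicate libraries per subline and 15 libraries in all. According to the protocols, VCaP-T was kept in RPMI medium with charcoal-stripped serum and 10 nM testosterone for 7 months, and VCaP-CT was derived from it by 10 more months at 0.1 nM testosterone, which models ADT. VCaP-CT gave rise to VCaP-CT-ER in 10 µM enzalutamide (ENZ) and to VCaP-CT-BR in bicalutamide. Bicalutamide-resistant cells were then selected in ENZ, which gave VCaP-CT-BR-ER, and this is called the last step here. All 5 sublines thus share the first stage with testosterone, and the 4 later ones share the low-testosterone stage. The sample labels differ from this. They list 10 nM testosterone in both stages whatever the subline, and for VCaP-CT-BR they name ENZ as well as bicalutamide, so the doses and drugs behind a step rest on the protocols. Each subline is 1 derivation, so the drug, the time in culture and the derivation cannot be told apart, and p-values measure the spread between libraries of 1 derivation.

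The 7 proteins serve different functions at the membrane. FOLH1, known as PSMA, is a glutamate carboxypeptidase that cleaves folate polyglutamates, and its gene is known to be repressed by androgen signaling. STEAP1 and STEAP2 belong to a family of membrane metalloreductases and lie next to each other in the genome. CD276, known as B7-H3, is an immune checkpoint ligand, PSCA and CEACAM5 are anchored in the membrane by a lipid, and DLL3 is an inhibitory Notch ligand best known from neuroendocrine tumors.

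Depth lay between 33665716 and 46935279 counted fragments per library, and each of the 15 libraries was closest to a library of its own subline. The luminal marker list (8 genes, including KLK3, HOXB13 and KRT18) summed to between 11418 and 11544 CPM (counts scaled to a common library size, by the TMM method) in VCaP-T and to between 4828 and 6694 CPM in the later sublines, with none of its genes at 0. CD3E, COL1A2 and KDR, markers of T cells, fibroblasts and endothelium, had a count of 0 in all 15 libraries. Other genes of the leukocyte, fibroblast and endothelial lists had counts. Against VCaP-T, VCaP-CT-ER was higher in LUM, DCN and PDGFRB (log2 fold changes of 8.03, 5.15 and 0.74). It was lower in COL1A1, VWF, PECAM1 and LYZ (−3.92, −6.56, −5.14 and −6.97). The fibroblast list summed to between 7.65 and 25.4 CPM outside the ENZ-resistant sublines and to between 185 and 251 CPM in them, nearly all of it LUM, and the endothelial list to between 8.16 and 16.3 CPM in VCaP-T and VCaP-CT and at most 1.57 CPM later. Their part in the differences below was not tested. In bulk libraries, fewer cells with a transcript and less transcript per cell cannot be told apart.

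The antigens changed in different directions along the derivation. All 7 passed the filter on low counts, CEACAM5 only through VCaP-T, where its counts were high. They were tested among 19621 genes by edgeR's quasi-likelihood test, with Benjamini-Hochberg adjustment and a threshold of 0.05. From VCaP-T to VCaP-CT, FOLH1, CD276 and DLL3 rose and STEAP2, PSCA and CEACAM5 fell, while 33.1% of all tested genes rose and 32.2% fell in that comparison. From VCaP-CT to VCaP-CT-ER, FOLH1, STEAP1, STEAP2 and PSCA rose and CD276 and DLL3 fell, against 29.6% and 31.2% of all genes. From VCaP-CT to VCaP-CT-BR, FOLH1, STEAP1 and STEAP2 rose and PSCA and DLL3 fell, against 26.1% and 27% of all genes. In the last step, PSCA rose and FOLH1, STEAP1, STEAP2, CD276 and DLL3 fell, against 21.2% and 21.7% of all genes. Calls were thus frequent across the genome, and the number of antigens called is to be read against these shares. Steps that meet in a subline share its libraries, so opposite changes in them are not independent. The median log2 fold change over the antigens with counts was −0.02 in the first step, 0.45 and 0.10 in the steps to VCaP-CT-ER and VCaP-CT-BR, and −0.29 in the last, next to 0.03, −0.02, −0.02 and 0.00 over all tested genes.

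**Figure D1:**
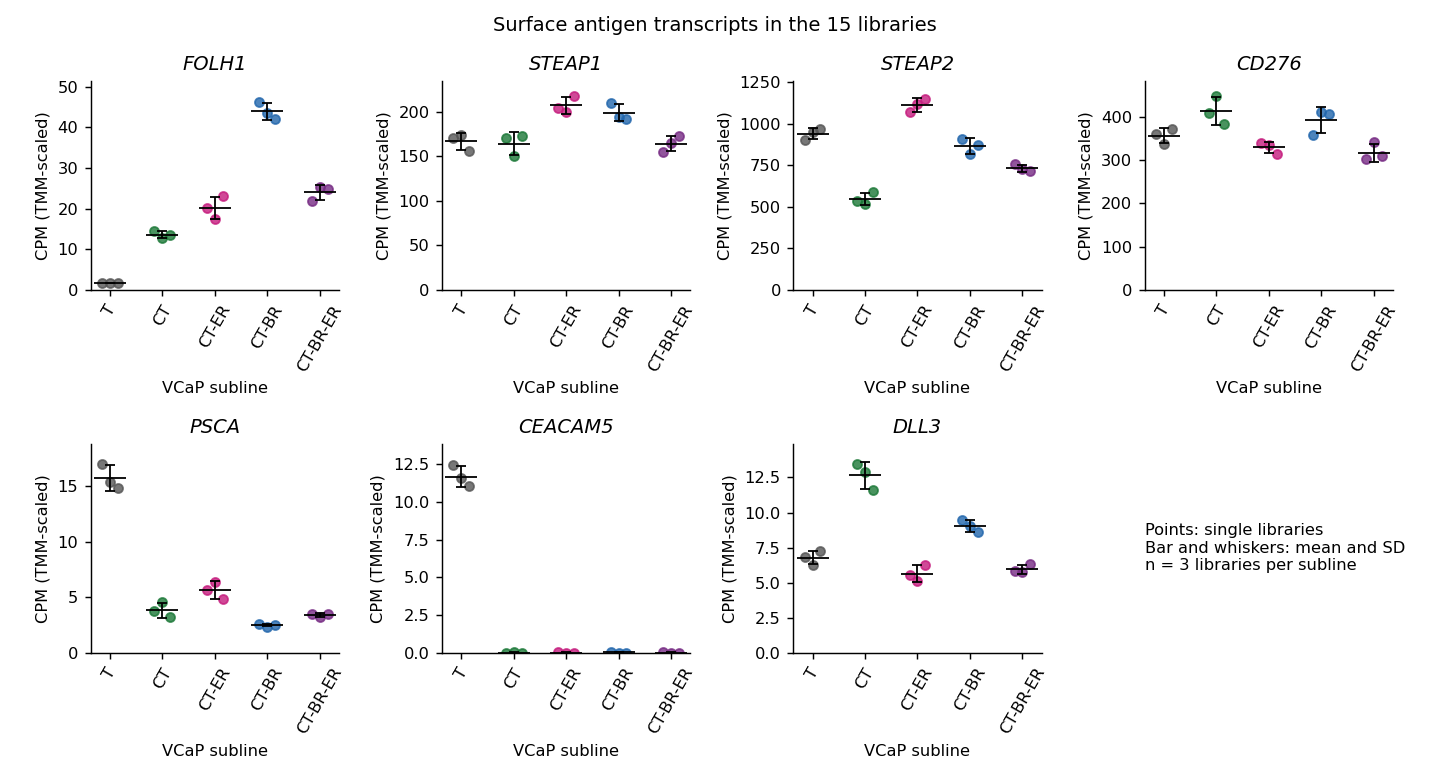
CPM of the 7 antigen transcripts (vertical axes, from 0) in the VCaP sublines (horizontal axes); points are single libraries, and bars with whiskers are the mean and SD of 3 libraries. FOLH1 is lowest in VCaP-T and highest in VCaP-CT-BR at 43.97 CPM, CEACAM5 is seen only in VCaP-T at 11.7 CPM, and STEAP1 and CD276 stay within 1.26-fold and 1.30-fold between their lowest and highest subline means.

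FOLH1 rose most and was the antigen with the widest range among the 6 seen in all sublines. The gene lies on the minus strand at chr11:49146635-49208670 (GRCh38), with 3824 exonic bases. VCaP-T had 64, 67 and 74 counts, or 1.76, 1.82 and 1.74 CPM. VCaP-CT had 14.4, 12.8 and 13.6 CPM and VCaP-CT-ER had 20.0, 17.4 and 23.0 CPM. VCaP-CT-BR had 46.2, 43.5 and 42.1 CPM and VCaP-CT-BR-ER had 21.8, 25.4 and 24.7 CPM. The libraries of VCaP-T were the lowest and those of VCaP-CT-BR the highest, and only the ENZ-resistant sublines, VCaP-CT-ER with VCaP-CT-BR-ER, overlapped.

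The step from VCaP-T to VCaP-CT raised FOLH1 7.65-fold (log2 fold change 2.94, SE 0.12, adjusted p = 7.8e-15). A rise of at least 2-fold was called for 8.6% of all genes in that step. It rose by 0.56 on the log2 scale to VCaP-CT-ER (SE 0.09, adjusted p = 1.11e-05) and by 1.69 to VCaP-CT-BR (SE 0.09, adjusted p = 1.75e-12), a 3.23-fold rise. The latter was among the 2.95% of genes called at least 2-fold higher. In the last step it fell by 0.88 on the log2 scale (SE 0.08, adjusted p = 2.24e-08). The 2 ENZ-resistant sublines differed by 0.25 on the log2 scale (adjusted p = 0.0177), with overlapping libraries, and this call was lost without VCaP-CT-ER replicate 1 or 2 or VCaP-CT-BR-ER replicate 2 or 3, with an adjusted p between 0.0510 and 0.151.

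The androgen response list (28 genes, 28 tested) did not move as 1 group, with 10 genes higher and 15 lower in VCaP-CT than in VCaP-T and 11 higher and 10 lower in VCaP-CT-BR than in VCaP-CT. The counts were 14 higher and 11 lower to VCaP-CT-ER, and 11 higher and 12 lower in the last step. Of all tested genes, 33.1% rose and 32.2% fell from VCaP-T to VCaP-CT, and 26.1% and 27% to VCaP-CT-BR. The shares were 29.6% and 31.2% to VCaP-CT-ER, and 21.2% and 21.7% in the last step. KLK3, which encodes PSA, fell by 6.75 on the log2 scale from VCaP-T to VCaP-CT (adjusted p = 1.3e-25) and by 1.23 to VCaP-CT-BR (adjusted p = 2.08e-13), both steps in which FOLH1 rose. In the step to VCaP-CT-ER, KLK3 rose by 3.97 on the log2 scale (adjusted p = 1.95e-22), as did FOLH1 by the smaller amount above. KLK3 also rose in the last step, by 1.502 (adjusted p = 4.69e-15), whereas FOLH1 fell.

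FOLH1B, a close copy of FOLH1 further along chromosome 11, can exchange reads with it. VCaP-T had between 0 and 1 of its counts, VCaP-CT between 4 and 6, VCaP-CT-ER between 32 and 45, VCaP-CT-BR between 26 and 42 and VCaP-CT-BR-ER between 7 and 21. This made 0.488% to 4.04% of the FOLH1 counts, and how shared reads were split was not tested. Of 13 genes related to FOLH1 or to folate and glutamate handling, 10 were tested. In VCaP-CT, 7 of them were higher than in VCaP-T and 1 was lower, beside 33.1% and 32.2% of all tested genes. SLC19A1, the reduced folate carrier, rose by 1.05 on the log2 scale (adjusted p = 1.85e-07) and NAALADL2, a relative of FOLH1, by 0.83 (adjusted p = 7.23e-10). In VCaP-CT-BR against VCaP-CT, SLC19A1 fell by 0.58 (adjusted p = 0.000392) while NAALADL2 rose by 0.45 (adjusted p = 6.89e-06). TFRC, the transferrin receptor and a member of the same fold family as FOLH1, rose by 1.08 on the log2 scale in the last step (adjusted p = 1.49e-12), where FOLH1 fell.

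STEAP1 and STEAP2 are plus-strand neighbors at chr7:90154375-90164829 and chr7:90167590-90238137, with 1625 and 8715 exonic bases. The bases before their RefSeq start sites (GRCh38.p14) are shown because the 2 genes lie side by side yet differed in the size of their changes, and the 250 bases before the CEACAM5 start, at chr19:41708376-41708625, are set beside them as those of the antigen that was lost. STEAP2 has 2 start sites in that table, called start 1 and start 2 here, and 4 of the 7 antigens had an entry. The gene models used for counting begin further upstream in each of these 3 genes. Sequences run 5′ to 3′ on the plus strand, at chr7:90154219-90154468 for STEAP1 and at chr7:90211490-90211739 and chr7:90213570-90213819 for STEAP2. Capitals mark matches, on either strand, to 4 motifs that were searched, namely TGTTTAC (bound by forkhead factors), CAGGAAG (bound by ETS factors), GGGCGG (bound by SP1) and TATAAA (a core promoter box).
STEAP1: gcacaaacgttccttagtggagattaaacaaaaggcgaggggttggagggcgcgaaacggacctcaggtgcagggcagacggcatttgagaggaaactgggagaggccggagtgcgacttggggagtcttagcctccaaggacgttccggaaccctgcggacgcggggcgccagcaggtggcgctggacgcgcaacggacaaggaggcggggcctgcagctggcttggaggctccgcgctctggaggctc
STEAP2 start 1: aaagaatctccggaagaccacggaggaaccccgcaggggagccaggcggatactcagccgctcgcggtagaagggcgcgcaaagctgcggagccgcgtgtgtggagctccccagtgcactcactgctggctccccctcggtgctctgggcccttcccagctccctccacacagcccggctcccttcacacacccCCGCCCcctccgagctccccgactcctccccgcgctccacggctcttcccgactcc
STEAP2 start 2: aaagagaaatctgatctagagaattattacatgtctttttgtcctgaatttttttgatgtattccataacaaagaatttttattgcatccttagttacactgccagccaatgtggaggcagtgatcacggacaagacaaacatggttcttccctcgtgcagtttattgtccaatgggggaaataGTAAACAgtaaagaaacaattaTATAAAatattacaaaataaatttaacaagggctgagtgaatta
CEACAM5: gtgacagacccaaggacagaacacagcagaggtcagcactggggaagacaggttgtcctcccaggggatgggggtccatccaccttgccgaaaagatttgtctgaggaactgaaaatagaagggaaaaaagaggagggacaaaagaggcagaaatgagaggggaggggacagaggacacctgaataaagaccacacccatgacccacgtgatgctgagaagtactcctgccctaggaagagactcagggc
STEAP1 and CEACAM5 held none of the 4 motifs in these windows. STEAP2 held GGGCGG on the minus strand, 56 bases before start 1, and the TGTTTAC and TATAAA letters 66 and 44 bases before start 2. Of 35116 promoter windows of the same length, 2.98% held TGTTTAC, 10.5% CAGGAAG, 42.6% GGGCGG and 10.7% TATAAA. STEAP1 and STEAP2 start 1 each held 21 CpG dinucleotides, against 2 at STEAP2 start 2, 2 at CEACAM5 and a median of 11 over all windows. A match in letters is a description of the sequence and no evidence of binding.

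STEAP2 followed a fall and partial or full return. VCaP-T had 905, 949 and 968 CPM and VCaP-CT had 533, 517 and 589 CPM. VCaP-CT-ER had 1070, 1120 and 1150 CPM. VCaP-CT-BR had 909, 818 and 870 CPM and VCaP-CT-BR-ER had 755, 729 and 714 CPM. VCaP-CT was the lowest and VCaP-CT-ER the highest subline without overlap, and VCaP-CT-BR overlapped with VCaP-T. STEAP2 fell by 0.78 on the log2 scale from VCaP-T to VCaP-CT (SE 0.05, adjusted p = 3.86e-11). It then rose 2.04-fold to VCaP-CT-ER (log2 fold change 1.03, SE 0.05, adjusted p = 5.86e-13), among the 7.96% of genes called at least 2-fold higher there, and by 0.66 on the log2 scale to VCaP-CT-BR (SE 0.05, adjusted p = 1.71e-09). In the last step it fell by 0.24 (SE 0.05, adjusted p = 0.000897). VCaP-CT-BR and VCaP-T differed by −0.12 on the log2 scale (adjusted p = 0.0479), and the adjusted p was between 0.0606 and 0.153 without VCaP-T replicate 2 or 3 or VCaP-CT-BR replicate 2 or 3, and 0.0596 on library totals alone.

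STEAP1 changed by smaller amounts. VCaP-T had 171, 173 and 156 CPM and VCaP-CT had 170, 150 and 172 CPM. VCaP-CT-ER had 203, 199.6 and 218 CPM. VCaP-CT-BR had 209.9, 194 and 192 CPM and VCaP-CT-BR-ER had 155, 165 and 172 CPM. VCaP-CT-ER and VCaP-CT-BR overlapped each other and lay above the 3 lower sublines, which overlapped as well. STEAP1 differed by −0.02 on the log2 scale between VCaP-CT and VCaP-T (SE 0.06, adjusted p = 0.783), where STEAP2 fell. It rose by 0.33 to VCaP-CT-ER (SE 0.06, adjusted p = 7.04e-05) and by 0.28 to VCaP-CT-BR (SE 0.06, adjusted p = 0.000677). It fell by 0.28 in the last step (SE 0.06, adjusted p = 0.000862).

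STEAP3 and STEAP4 followed STEAP2 in some steps and not in others. STEAP4, a metalloreductase gene induced by androgen in other settings, dropped from 135 ± 5.67 CPM in VCaP-T (mean ± SD, n = 3 libraries here and throughout) to 1.75 ± 0.250 CPM once VCaP-CT was derived, a fall of 6.27 on the log2 scale (adjusted p = 4.84e-20). VCaP-CT-ER had 0.0982 CPM of STEAP4, VCaP-CT-BR had 0.249 and VCaP-CT-BR-ER had 0.239. STEAP3, which acts in iron uptake, fell by 0.69 to VCaP-CT (adjusted p = 1.26e-05), as STEAP2 did. It rose by 0.55 to VCaP-CT-ER (adjusted p = 0.000166), as STEAP1 and STEAP2 did. STEAP3 fell by 0.49 to VCaP-CT-BR (adjusted p = 0.00134), where STEAP1 and STEAP2 rose. It rose by 0.88 in the last step (adjusted p = 1.95e-06), in which STEAP1 and STEAP2 fell. STEAP1B, a paralog of STEAP1, had between 1 and 12 counts summed over the 3 libraries of a subline and was not tested. STEAP2-AS1, an antisense transcript, spans part of this locus on the minus strand, shares 0 exonic bases with STEAP1 and STEAP2, and was not called in the first step (log2 fold change 0.21, adjusted p = 0.679).

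CD276 stayed within a narrow range. The gene is on the plus strand at chr15:73683966-73714518, with 5542 exonic bases. VCaP-T had 361, 338 and 372 CPM, VCaP-CT had 409, 448 and 385 CPM, and VCaP-CT-ER had 340, 334 and 315 CPM. VCaP-CT-BR had 359, 413 and 406 CPM and VCaP-CT-BR-ER had 302, 341 and 309 CPM. The libraries of VCaP-CT were above those of VCaP-T and of both ENZ-resistant sublines, while neighboring sublines in the order of levels all overlapped. CD276 rose by 0.21 on the log2 scale from VCaP-T to VCaP-CT (SE 0.06, adjusted p = 0.00586), and without VCaP-CT replicate 2 this was 0.15 with an adjusted p of 0.0631. It fell by 0.33 to VCaP-CT-ER (SE 0.06, adjusted p = 0.000144) and by 0.31 in the last step (SE 0.06, adjusted p = 0.000531). Between VCaP-CT-BR and VCaP-CT the log2 difference was −0.08 (SE 0.06, adjusted p = 0.332).

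Of the B7 family, 6 of 10 genes were tested, and CD276 was the most abundant of them per length, with 144 to 185 TPM (counts scaled by exonic length and library total) as subline means. NCR3LG1, the ligand of an activating receptor of natural killer cells, was between 6.53 and 11.8 TPM as a subline mean, and rose by 0.79 on the log2 scale in the last step (adjusted p = 4.9e-07), where CD276 fell. CD274, which encodes PD-L1, was between 0.179 and 0.638 TPM.

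PSCA fell early and stayed low. The gene is on the plus strand at chr8:142670308-142682724, with 1763 exonic bases. VCaP-T had 619, 567 and 629 counts, or 17.0, 15.4 and 14.8 CPM. VCaP-CT had 3.71, 4.53 and 3.19 CPM and VCaP-CT-ER had 5.67, 6.41 and 4.84 CPM. VCaP-CT-BR had 2.57, 2.35 and 2.503 CPM and VCaP-CT-BR-ER had 3.52, 3.17 and 3.46 CPM. Every library of VCaP-T was above every later one, VCaP-CT-BR was the lowest subline, and VCaP-CT overlapped only with VCaP-CT-BR-ER. PSCA fell 4.13-fold from VCaP-T to VCaP-CT (log2 fold change −2.05, SE 0.11, adjusted p = 1.55e-12), among the 12.2% of genes called at least 2-fold lower in that step. It rose by 0.57 on the log2 scale to VCaP-CT-ER (SE 0.12, adjusted p = 0.000388) and fell by 0.62 to VCaP-CT-BR (SE 0.14, adjusted p = 0.000792). In the last step it rose by 0.45 (SE 0.14, adjusted p = 0.012).

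JRK runs through the PSCA gene on the opposite strand. It shares 368 of the 1763 exonic bases of PSCA, or 20.9%, and the counting took no account of strand. JRK rose by 1.79 on the log2 scale from VCaP-T to VCaP-CT (adjusted p = 2.21e-15), from 15.7 to 54.2 CPM, in the step in which PSCA fell. Its part in the PSCA counts was not tested. Of the 10 tested genes next to PSCA, 8 rose and 0 fell in that step, beside 33.1% and 32.2% of all tested genes. Their median log2 fold change was 1.03, the opposite direction to PSCA. Of 13 relatives of PSCA in the LY6 and uPAR family, 6 were tested. In VCaP-CT 4 rose and 1 fell, beside the same shares of all genes. LYNX1 rose by 1.14 on the log2 scale (adjusted p = 3.53e-05), and PLAUR, the urokinase receptor, fell by 0.46 (adjusted p = 0.0018).

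**Figure D2:**
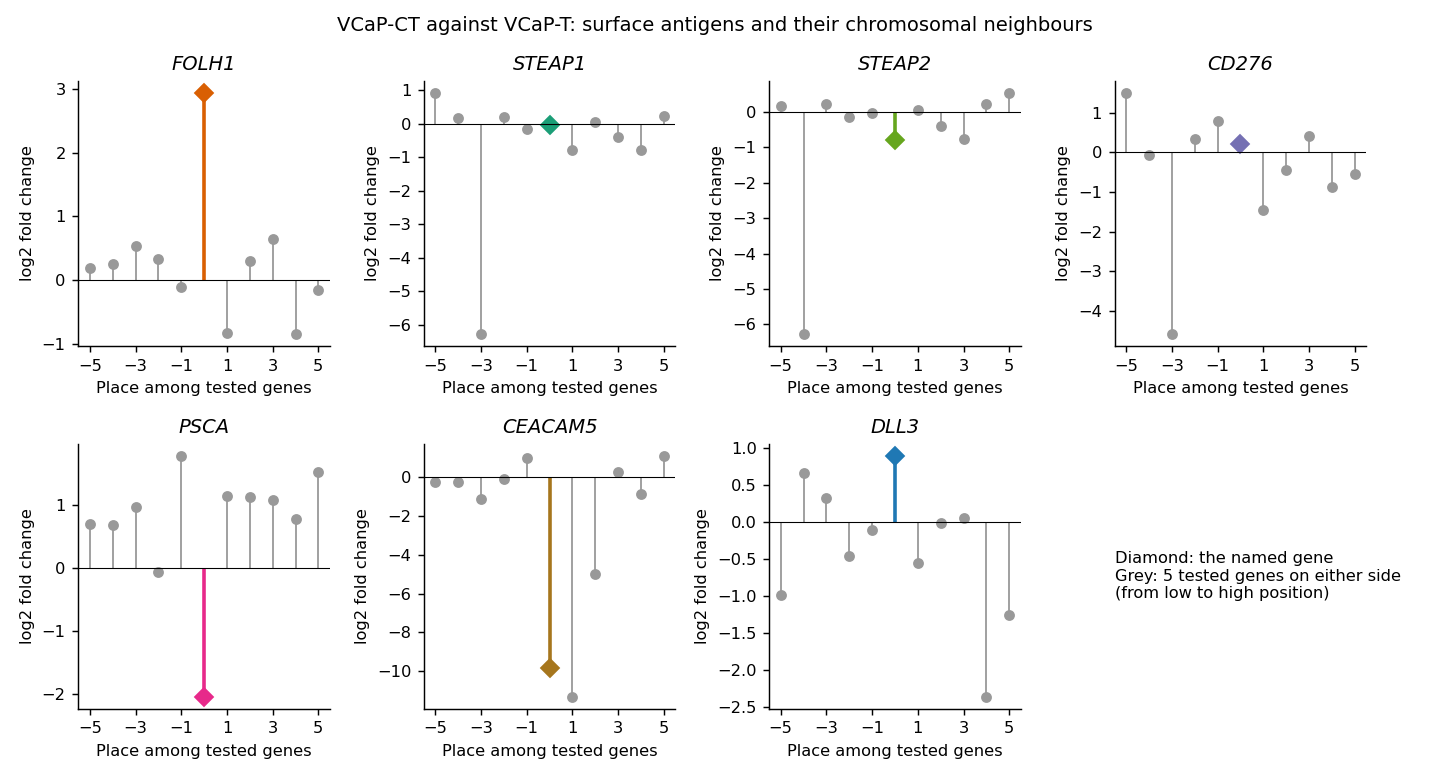
Log2 fold change from VCaP-T to VCaP-CT (vertical axes) of each antigen (diamond) and of the 5 tested genes on either side of it, in order of position (horizontal axes); the fitted values of CEACAM5 and CEACAM6 depend on the count added to zeros. FOLH1 stands at 2.94 above all 10 of its neighbors, whose highest is 0.64, and PSCA stands at −2.05 below all of its own, whose lowest is −0.07. The farthest of these neighbors lies 8117 kb from FOLH1 and 597 kb from PSCA.

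CEACAM5 was the antigen that was lost. The gene is on the plus strand at chr19:41708585-41729798, with 3351 exonic bases. VCaP-T had 452, 425 and 468 counts, or 12.4, 11.6 and 11.02 CPM. In the 12 later libraries it had 5 counts in total, with at most 2 in a library and 0 in 8 of them. The rate in VCaP-T was 1211 times that in VCaP-CT, with a 95% exact interval from 217 to 47858, which covers counting error only. Over all 12 later libraries the ratio was 1103, with an interval from 471 to 3402. The fall to VCaP-CT passed the edgeR test (adjusted p = 4.34e-16), but CEACAM5 passed the filter on low counts only through VCaP-T. The test therefore adds no support beyond the counts. Among the 4 later sublines the counts were at or below the floor of 3 counts, and no difference between them was detectable at this depth.

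CEACAM6, the neighbor of CEACAM5 on the chromosome and a lipid-anchored adhesion protein as well, was lost with it. It had 1243 counts in VCaP-T replicate 1 and 3723 in the 3 libraries together, whereas VCaP-CT had a sum of 1, VCaP-CT-ER of 15, VCaP-CT-BR of 2 and VCaP-CT-BR-ER of 1. Its rate in VCaP-T was 3351 times that in VCaP-CT (95% exact interval from 601 to 132409). Like CEACAM5, it passed the filter on low counts only through VCaP-T. CEACAM1, which spans the membrane, fell from 30.6 ± 1.16 CPM to 1.39 ± 0.139 in VCaP-CT and to 0.0434 in VCaP-CT-BR-ER. Of the 12 CEACAM genes listed, 5 were tested, and 4 fell and 0 rose in VCaP-CT, beside 32.2% and 33.1% of all genes. The 4 include CEACAM5 and CEACAM6, which could only fall given how they passed the filter, so the shares cannot be set against them. The others that fell were CEACAM1 and CEACAM19. CEACAM19 fell as well in that step but rose by 1.31 on the log2 scale to VCaP-CT-ER (adjusted p = 2.75e-09) and by 1.45 in the last step (adjusted p = 4.48e-09). The other tested neighbors of CEACAM5 did not all move with it, and RPS19, for one, rose by 0.27 (adjusted p = 0.00144).

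Some markers of other cell types fell in the same step as CEACAM5. The basal list summed to between 21.6 and 23.7 CPM in VCaP-T and 2.35 and 2.84 in VCaP-CT, with KRT14 and KRT15 falling, KRT17 at 0 in VCaP-T and KRT5 at 0 in VCaP-CT. The leukocyte list summed to between 45.7 and 59.4 CPM in VCaP-T and 0.940 and 1.15 in VCaP-CT, almost all of it LYZ (lysozyme), with 6042 counts in VCaP-T and 102 in VCaP-CT. PTPRC and CD3E were at 0 in both sublines. The part of these shifts in the loss of CEACAM5 was not tested.

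DLL3 was highest in VCaP-CT. The gene is on the plus strand at chr19:39498895-39508481, with 2618 exonic bases. VCaP-T had 249, 230 and 307 counts, or 6.85, 6.26 and 7.23 CPM. VCaP-CT had 13.5, 12.9 and 11.6 CPM and VCaP-CT-ER had 5.55, 5.10 and 6.26 CPM. VCaP-CT-BR had 9.49, 9.03 and 8.60 CPM and VCaP-CT-BR-ER had 5.81, 5.72 and 6.29 CPM. VCaP-CT was above all other sublines and VCaP-CT-BR above the 3 lower ones, which overlapped with their neighbors in the order. DLL3 rose by 0.90 on the log2 scale from VCaP-T to VCaP-CT (SE 0.09, adjusted p = 1.88e-08). It fell 2.25-fold to VCaP-CT-ER (log2 fold change −1.17, SE 0.09, adjusted p = 3.97e-10), among the 9.58% of genes called at least 2-fold lower there. It fell by 0.49 to VCaP-CT-BR (SE 0.09, adjusted p = 8.7e-05) and by 0.61 in the last step (SE 0.09, adjusted p = 1.97e-05).

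Genes of the neuroendocrine state, in which DLL3 is best known, mostly fell where DLL3 rose. Of 15 neuroendocrine genes 11 were tested, and 3 rose and 8 fell in VCaP-CT against VCaP-T, beside 33.1% and 32.2% of all genes. ENO2 rose by 1.62 on the log2 scale (adjusted p = 6.1e-16) and CHGB fell by 7.49 (adjusted p = 2.57e-22). REST, a repressor of neuroendocrine genes, is also on the list. It was 1 of the 3 that rose, by 1.13 (adjusted p = 5.57e-11), and the counts below include it. NEUROD1, a neuroendocrine transcription factor, had 0 counts in all 15 libraries, and CHGA was at 0 in VCaP-CT. To VCaP-CT-ER 6 rose and 5 fell, beside 29.6% and 31.2% of all genes. To VCaP-CT-BR 2 rose and 4 fell, beside 26.1% and 27%. In the last step 2 rose and 4 fell, beside 21.2% and 21.7%.

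Genes of the Notch pathway, of which 21 of 24 were tested and DLL3 is one, were mostly higher in VCaP-CT and mostly lower in the steps from it. These comparisons share the VCaP-CT libraries, so the rises and the later falls are not independent. In VCaP-CT against VCaP-T, 12 rose and 3 fell, with a rise of the Notch target HEY1 by 1.69 on the log2 scale (adjusted p = 2.66e-10) and of the receptor NOTCH1 by 0.94 (adjusted p = 4.63e-05). The target HES1 fell by 3.17 (adjusted p = 6.03e-16). To VCaP-CT-ER, 3 rose and 13 fell, with JAG1, an activating ligand, falling by 2.16 (adjusted p = 3.04e-17) and the coactivator MAML2 by 3.93 (adjusted p = 3.14e-16). To VCaP-CT-BR, 2 rose and 16 fell, LFNG by 1.79 (adjusted p = 3.33e-10). In the last step 9 rose and 6 fell, and HES1 rose by 1.415 (adjusted p = 6.56e-08) while DLL3 fell. Of all tested genes, 33.1% rose and 32.2% fell from VCaP-T to VCaP-CT, and 29.6% and 31.2% to VCaP-CT-ER. The shares were 26.1% and 27% to VCaP-CT-BR, and 21.2% and 21.7% in the last step.

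The change in the step into ENZ differed between the derivation from VCaP-CT and that from VCaP-CT-BR for 4 of the 6 antigens that could be compared. Each step is 1 derivation, so the starting subline and the derivation cannot be told apart. The comparison set the last step against the step from VCaP-CT to VCaP-CT-ER, which share no library, and across the genome 25.2% of genes differed upward and 24.5% downward. FOLH1 rose from VCaP-CT and fell from VCaP-CT-BR, a difference of −1.44 on the log2 scale (SE 0.12, adjusted p = 3.25e-09). STEAP2 did the same, with a difference of −1.27 (SE 0.08, adjusted p = 1.67e-11), and STEAP1 with one of −0.61 (SE 0.09, adjusted p = 5.21e-06). DLL3 fell in both steps, less so from VCaP-CT-BR, with a difference of 0.57 (SE 0.13, adjusted p = 0.00112). For CD276, which fell in both, the difference was 0.02 (SE 0.09, adjusted p = 0.863), and for PSCA, which rose in both, it was −0.12 (SE 0.19, adjusted p = 0.624).

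**Figure D3:**
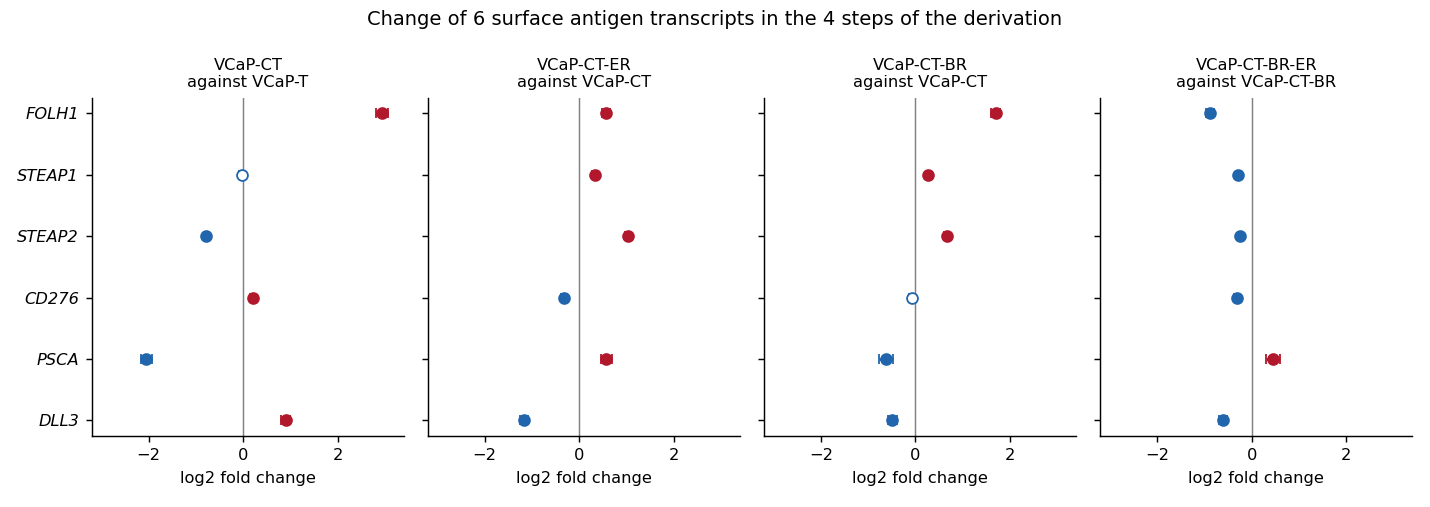
Log2 fold change (horizontal axes, whiskers are the SE) of the 6 antigens with counts in every subline, in the 4 steps of the derivation; filled points passed the edgeR test, and red and blue mark values above and below 0. FOLH1, STEAP1 and STEAP2 lie above 0 in the step to VCaP-CT-ER, at 0.56, 0.33 and 1.03, and below 0 in the step to VCaP-CT-BR-ER, at −0.88, −0.28 and −0.24.

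Pairs of sublines that are not joined by a step were compared as well, and these comparisons share libraries with the steps above. Against VCaP-T, FOLH1 was higher in all 3 antagonist-resistant sublines and PSCA and CEACAM5 were lower in all 3. For FOLH1 the log2 differences were 3.50 in VCaP-CT-ER (adjusted p = 1.15e-16), 4.63 or 24.7-fold in VCaP-CT-BR (adjusted p = 7.52e-19) and, for VCaP-CT-BR-ER, 3.75 (adjusted p = 3e-17). For PSCA they were −1.48, −2.67 and −2.22 in the same order (adjusted p of 5.83e-11, 2.28e-14 and 2.37e-13).

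In VCaP-CT-ER against VCaP-T, STEAP1 and STEAP2 were also higher, by 0.31 and 0.24 on the log2 scale, and DLL3 was lower, with a log2 difference of −0.27 (adjusted p = 0.0149). That made 3 antigens higher and 3 lower, beside 34.3% and 34.7% of all genes. In VCaP-CT-BR, STEAP1 and DLL3 were higher than in VCaP-T, by 0.25 and 0.41 on the log2 scale, so that 3 antigens were higher and 3 lower, beside 35.9% and 35.3% of all genes. In VCaP-CT-BR-ER, STEAP2 and CD276 were lower than in VCaP-T, with log2 differences of −0.36 and −0.17, so that 1 antigen was higher and 4 were lower, beside 34.9% and 35.3% of all genes. The CD276 libraries overlapped in this pair, and its adjusted p of 0.0237 became 0.0618 to 0.0854 without VCaP-T replicate 3 or VCaP-CT-BR-ER replicate 1 or 3. The DLL3 call in VCaP-CT-ER was lost without VCaP-T replicate 3 or VCaP-CT-ER replicate 2 (adjusted p = 0.0723 and 0.0873) and with no filter on low counts (adjusted p = 0.0542).

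The resistant sublines differed from each other too. VCaP-CT-ER had less FOLH1 than VCaP-CT-BR, with a log2 difference of −1.13 (adjusted p = 2e-10), less DLL3 (−0.69, adjusted p = 2e-06) and less CD276 (−0.25, adjusted p = 0.00206), but more STEAP2 (0.36, adjusted p = 5.74e-06) and more PSCA (1.19, adjusted p = 8.34e-08). Of all genes, 27.1% were higher and 28.8% lower in that pair. VCaP-CT-BR-ER had less STEAP1 than VCaP-CT-ER, with a log2 difference of −0.33 (adjusted p = 0.000112), less STEAP2 (−0.60, adjusted p = 6.69e-09) and less PSCA (−0.74, adjusted p = 3.96e-05), while FOLH1 was the 1 antigen called higher. Of all genes, 23.3% were higher and 22.7% lower. Compared with VCaP-CT, VCaP-CT-BR-ER had more FOLH1 (0.82, adjusted p = 9.67e-08) and STEAP2 (0.42, adjusted p = 8.54e-07) and less CD276 (−0.38, adjusted p = 3.33e-05) and DLL3 (−1.09, adjusted p = 2.22e-09), beside 26.2% of genes higher and 26.4% lower.

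Between genes, levels were compared in TPM, which accounts for exonic length. STEAP1, STEAP2 and CD276 were among the 8 most abundant of 43 surface antigen transcripts in each subline (these 7 and 36 others on the list). STEAP1 was between 250.1 and 331 TPM and STEAP2 between 155 and 332 TPM as subline means. FOLH1 stood at rank 32 of 43 in VCaP-T with 1.23 TPM and at rank 13 in VCaP-CT-BR with 29.0 ± 1.23 TPM, still below STEAP1 at 309 ± 14.1 TPM in the same libraries. PSCA went from 23.6 TPM at rank 16 in VCaP-T to 3.55 TPM at rank 29 in VCaP-CT-BR. DLL3 was between 5.59 and 11.995 TPM.

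**Figure D4:**
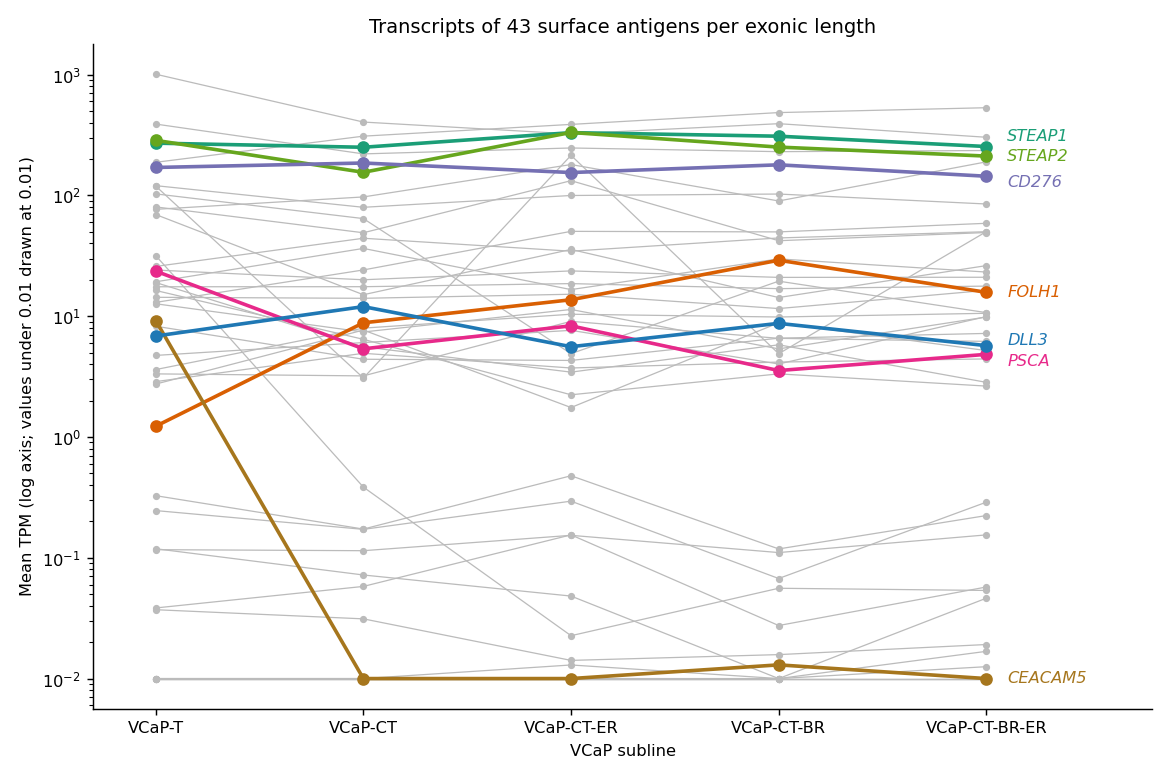
Mean TPM (vertical log axis, values under 0.01 drawn at 0.01) of 43 surface antigen transcripts in the 5 VCaP sublines (horizontal axis); colored lines are the 7 named antigens and gray lines the other 36. STEAP1, STEAP2 and CD276 stay between 144 and 332 TPM, FOLH1 climbs from 1.23 to 29.0 TPM, and CEACAM5 drops from 9.20 TPM to the bottom of the axis.

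Of the 36 other antigens, 28 were tested. From VCaP-T to VCaP-CT 9 rose and 14 fell, beside 33.1% and 32.2% of all genes. To VCaP-CT-ER 14 rose and 9 fell, beside 29.6% and 31.2%. To VCaP-CT-BR 8 rose and 10 fell, beside 26.1% and 27%. In the last step 11 rose and 7 fell, beside 21.2% and 21.7%. TMEFF2, a transmembrane protein of prostate epithelium, fell by 5.18 on the log2 scale to VCaP-CT (adjusted p = 1.18e-22), rose by 6.05 to VCaP-CT-ER (adjusted p = 1.24e-23) and rose by 3.36 in the last step (adjusted p = 5.47e-20), in which FOLH1 fell. NECTIN4, an adhesion protein, rose by 1.23 to VCaP-CT (adjusted p = 8.54e-11), and ERBB2, a receptor tyrosine kinase, rose by 1.31 in the last step (adjusted p = 2.9e-12). F3, or tissue factor, fell by 3.78 to VCaP-CT-ER (adjusted p = 1.84e-20) and by 1.75 to VCaP-CT-BR (adjusted p = 5.66e-15).

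The patterns most like those of the antigens were sought among 13052 genes by Pearson correlation of log2 CPM over the 15 libraries. These correlations describe 5 clusters of 3 libraries that share their subline, so they carry no test. FOLH1 was most like TSPYL4 (r = 0.994), ANKRD50 (r = 0.994) and ZIK1 (r = 0.993), and STEAP2 most like SLC25A36 (r = 0.984), EZH2 (r = 0.978) and SMAGP (r = 0.965). STEAP1 had its nearest in NAA20 (r = 0.963), UFD1 (r = 0.949) and CRLS1 (r = 0.943), and CD276 in NDUFS8 (r = 0.930), SPINDOC (r = 0.924) and PTGES2 (r = 0.920). PSCA was closest to AARS1 (r = 0.989), SULT1C2 (r = 0.985) and EIF2AK1 (r = 0.983), and DLL3 to HOTTIP (r = 0.981), PBX2P1 (r = 0.965) and SPECC1L (r = 0.963). For CEACAM5, with PRSS3 (r = 0.997), GPT2 (r = 0.993) and PDPK1 (r = 0.993), the value reflects the gap between VCaP-T and all later libraries. STEAP1 and STEAP2 correlated with r = 0.637 over the same libraries, and DLL3 and CD276 with r = 0.828. Stronger or opposite pairs were FOLH1 with PSCA (r = −0.945) and with CEACAM5 (r = −0.927), PSCA with CEACAM5 (r = 0.900) and DLL3 with STEAP2 (r = −0.743). VCaP-T lay apart from all later libraries for FOLH1 and PSCA too, which weighs on their values.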

How the data were processed

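Bulk RNA-seq libraries of 5 VCaP sublines were used (15 libraries, 3 per subline), grouped by sample title. The authors aligned paired reads to GRCh38 with STAR 2.5.4b and deposited raw fragment counts per gene from featureCounts 1.6.2, without strand, on GENCODE 28. Symbols were taken from GENCODE 44 by identifier (98.9% of genes matched). How fragments shared by FOLH1 and FOLH1B or by PSCA and JRK were assigned cannot be seen from the counts.

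Counts were filtered with filterByExpr (minimum count 10, 19621 genes), scaled by TMM and fitted with a term per subline over all 15 libraries in edgeR 4.0.16 (R 4.3.3), with quasi-likelihood tests adjusted over all tested genes at a threshold of 0.05. The SE is the log2 fold change over the square root of F. TPM used the exonic lengths of the count files. Ratios for CEACAM5 and CEACAM6 compare summed counts, with exact 95% binomial intervals that, like the floor of 3 counts, cover counting error only. The scripts were tested on simulated data. Alternatives were DESeq2 1.42.0, other scalings and filters, a fit of only the sublines compared, a replicate block and each library left out.

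The genes, the lists and the tests were chosen with earlier results of these data known. Named genes were all 7 antigens, the 2 largest rises and 2 largest falls per list and step (average log2 CPM of at least 1), the STEAP, B7 and CEACAM families by level, the 5 tested genes on either side, and the 3 most correlated genes. RPS19 and the choice among these names came after the values were seen. FOLH1, PSCA and DLL3 have no promoter sequence shown, and that of CD276 was not used. Some genes of the marker lists and a promoter motif are not reported here.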

Additional observations from a re-analysis of the deposited data

Results flagged for a closer look

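For 4 antigens the change into ENZ resistance differed between the derivation from VCaP-CT-BR and that from VCaP-CT, by edgeR's test of the difference itself. Earlier resistance to bicalutamide and the derivation cannot be told apart here. On the log2 scale the difference (the step from VCaP-CT-BR minus the step from VCaP-CT) was −1.44 for FOLH1, −1.27 for STEAP2, −0.61 for STEAP1 and 0.57 for DLL3. FOLH1, STEAP1 and STEAP2 went up in all 3 libraries of VCaP-CT-ER relative to those of VCaP-CT and down in all 3 of VCaP-CT-BR-ER relative to those of VCaP-CT-BR. DLL3 went down in both steps. The groups of 3 were too small to look for single libraries that stand apart.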

How the results depend on the processing

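Of 70 comparisons of an antigen between sublines or steps, 57 were called. Over the same contrasts, between 21.2% and 35.9% of all tested genes were called in each direction. The comparisons of CEACAM5 without VCaP-T were at the floor, were not called and are not counted in the 70. The 57 include the falls of CEACAM5, which passed the filter only through VCaP-T. The calls were recomputed with 7 other settings and with each of the 15 libraries left out, and 52 of the 57 were called under each setting that gave a value. The other 5 are FOLH1 between the ENZ-resistant sublines, STEAP2, DLL3 and CD276 against VCaP-T, and CD276 from VCaP-T to VCaP-CT, each named in the text. The falls of CEACAM5 are among the 52 and say nothing on robustness, since a setting could hardly lose them. The stricter filter gave values for 66 of the comparisons, and the fit of only the sublines compared for 64. For CD276 from VCaP-T to VCaP-CT, the log2 fold change was between 0.15 and 0.25 with 1 library left out, and the call was lost without VCaP-CT replicate 2. The number of antigens called higher in VCaP-CT-BR-ER than in VCaP-CT-ER was between 0 and 1. DESeq2 kept all 57 calls, the falls of CEACAM5 among them. Of the comparisons not called, CD276 between VCaP-CT-BR and VCaP-T was called without VCaP-CT-BR replicate 1 or without the filter (adjusted p = 0.0187 and 0.0259), and DLL3 in VCaP-CT-BR-ER against VCaP-T without VCaP-T replicate 2 or with a stricter filter (adjusted p = 0.0457 and 0.0360), both by edgeR.

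Values near 0 that were not called changed sign. STEAP1 between VCaP-CT and VCaP-T was 0.018 with upper quartile scaling and between −0.083 and 0.034 with 1 library left out. STEAP1 in VCaP-CT-BR-ER against VCaP-T was then between −0.079 and 0.010. STEAP1 in VCaP-CT-BR-ER against VCaP-CT was 0.010 on library totals alone, 0.019 without the filter and between −0.057 and 0.045 with 1 library left out. The difference between the ENZ steps for CD276 was −0.036 on library totals alone and between −0.053 and 0.061 with 1 library left out. The cause was not tested.

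Taken over all sublines, replicate numbers did not pair the libraries. Deviations from the subline mean correlated on average at −0.005 for equal numbers and 0.003 for unequal ones. The best match had the same number in 20 of 60 cases. For equal numbers the mean ran from −0.256 to 0.254 between pairs of sublines, and single library pairs from −0.474 to 0.468. With a replicate block the same 57 comparisons were called, and STEAP1 in VCaP-CT-BR-ER against VCaP-CT was 0.00014. Depth limits CEACAM5 after VCaP-T, where 3 counts are the floor.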
